A study of Mus musculus with 6 samples.

Results

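The genes described here encode the machinery that folds and checks N-glycosylated proteins in the endoplasmic reticulum (ER). There are 10 of them among 27095 gene windows: Uggt2, Uggt1, Ganab, Canx, Calr, Pdia3, Edem1, Edem2, Edem3 and Lman1. They were picked by gene symbol for their function, around Uggt2, which had the smallest p of the group in the comparison of Kat7 knockout with wildtype. Uggt1, the paralogue of Uggt2, was included as its contrast. Values of that comparison are therefore given for these genes as a description, without p-values.

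Chromatin accessibility was measured by ATAC-seq, which reads out where a transposase can reach the DNA. The cells were MHCII-high epithelial cells of the thymic medulla, which display self-antigens to developing T cells. There were 3 Kat7 knockout and 3 wildtype libraries, all from C57BL/6 mice, and the series calls them biological replicates. KAT7 is an enzyme that acetylates histones, chiefly H3 lysine 14. The sources used here do not give the age of the mice, the driver of the deletion or the deleted part of Kat7. Each gene had 1 window, usually reaching from 3000 bases upstream to 2000 bases downstream of its start, and the value is the number of reads in it. The values are therefore accessibility around a promoter and not expression. In such bulk libraries, fewer cells with an open promoter and less accessibility per cell cannot be told apart.

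A glycan chain attached to a new protein in the ER serves as a tag of its folding state. Glucosidase II, whose catalytic subunit is the product of Ganab, trims glucoses from it. The lectins calnexin (Canx) and calreticulin (Calr) then hold the glycoprotein while the oxidoreductase PDIA3 forms its disulfide bonds. UGGT1 recognises incompletely folded glycoproteins and puts a glucose back, which returns them to the lectins. UGGT2 has the same activity in assays of the human enzyme. EDEM1, EDEM2 and EDEM3 trim mannoses and mark terminally misfolded glycoproteins for degradation, and LMAN1 carries folded ones towards the Golgi. Calnexin, calreticulin and PDIA3 also assist the assembly of MHC class I.

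Library totals lay between 15482439 and 19740835 counts in knockout and between 15494911 and 19832326 in wildtype. The window of Kat7 held 11.9, 13.2 and 38.3 CPM (counts scaled to library size and composition) in knockout libraries 1 to 3, against 291, 238 and 272 CPM in wildtype libraries 1 to 3. Its log2 fold change was -3.66 (SE 0.574, edgeR adjusted p = 0.0143). The SE here and below is the size of the log2 fold change divided by the square root of edgeR's F statistic. That statistic moderates the spread of each window across windows, so the SE is not that of the libraries alone. The call was lost without wildtype library 1 (adjusted p = 0.0643) or library 3 (0.0565), within a range over the alternatives of 1.05e-130 to 0.0643. Of 7 medullary epithelial marker windows, Aire, Epcam and Cd80 among them, none passed in either direction, and their summed level was 939 to 1145 CPM in knockout and 1025 to 1059 CPM in wildtype. Of 5 windows listed as cortical markers 2 rose, Foxn1 (log2 fold change 1.69) and Psmb11 (0.53), and 3 did not pass. Foxn1 had the largest change of the list, whose sums were 485 to 580 CPM in knockout and 287 to 334 CPM in wildtype. Both Cd4 and Cd8a rose among 7 thymocyte windows, and 3 of 5 B cell windows fell. Sums of the thymocyte windows were 37.2 to 41.3 CPM in knockout and 32.5 to 36.1 CPM in wildtype, and those of the B cell windows 36.4 to 38.1 CPM in knockout and 57.2 to 58.3 CPM in wildtype. Among 7 myeloid windows Csf1r and Spi1 fell and Cd14 rose, with sums of 60.1 to 65.1 CPM in knockout and 57.3 to 61.1 CPM in wildtype. Among 5 endothelial windows Pecam1 (log2 fold change -1.33) and Kdr (-1.37) fell and Tek (0.72) rose, with sums of 74.7 to 82.6 CPM in knockout and 80.9 to 86.7 CPM in wildtype. Of 5 mesenchymal windows 3 fell, with sums of 72.4 to 74.4 CPM in knockout and 107.6 to 108.9 CPM in wildtype. Over all windows tested, 20.2% were called lower and 6.36% higher, and the calls in these short lists are given as a description. No marker window was at 0 in any library, and the part of cell composition in the values below was not tested.

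The promoter of Uggt2 lost most of its accessibility in the knockout. Its window (gene identifier 66435, chromosome 14, 119097434 to 119102434, minus strand, mm10) held 37, 37 and 80 counts in knockout libraries 1 to 3, against 589, 377 and 462 in wildtype libraries 1 to 3. Scaled, these were 2.12, 2.21 and 4.89 CPM in knockout and 30.2, 24.1 and 27.3 CPM in wildtype. The groups lay far apart: the highest knockout library was below the lowest wildtype library, as in 24.6% of all windows tested. Means were 3.07 ± 1.58 CPM in knockout and 27.2 ± 3.05 CPM in wildtype (SD, n = 3 each), 8.84-fold lower. The fitted log2 fold change was -3.15 (SE 0.152, from spread moderated across windows). Of 24817 windows tested, 3 had a lower log2 fold change, the targeted gene Kat7 among them. Uggt2 was chosen by this comparison, so its rank is a description only.

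Uggt1, the gene of the main folding sensor, did not share this loss. Its window (gene identifier 320011, chromosome 1, 36242302 to 36247302, minus strand) held 95.5, 78.2 and 76.8 CPM in knockout libraries 1 to 3, against 74.4, 80.5 and 71.2 CPM in wildtype. The groups overlapped, with means of 83.5 ± 10.4 CPM in knockout and 75.4 ± 4.71 CPM in wildtype (SD, n = 3 each). The log2 fold change was 0.15 (SE 0.117). Within each library, the level of Uggt2 came to 2.22%, 2.83% and 6.37% of that of Uggt1 in knockout, against 40.6%, 29.9% and 38.3% in wildtype; both windows have the same length. The log2 fold change of Uggt2 minus that of Uggt1 was -3.30.

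The stretches just upstream of both starts show that the paralogues differ in promoter sequence although both hold many CpG dinucleotides, which are in capitals. They are the 250 bases before each start, from RefSeq (build GRCm38.p6), at chr14:119099435-119099684 for Uggt2 and chr1:36244303-36244552 for Uggt1, both on the minus strand and written 5′ to 3′.
Uggt2: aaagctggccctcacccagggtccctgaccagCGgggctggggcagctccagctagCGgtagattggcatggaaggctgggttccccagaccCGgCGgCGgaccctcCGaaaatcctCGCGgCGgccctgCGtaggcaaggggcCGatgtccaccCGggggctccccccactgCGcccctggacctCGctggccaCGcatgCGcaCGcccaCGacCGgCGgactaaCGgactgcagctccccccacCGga
Uggt1: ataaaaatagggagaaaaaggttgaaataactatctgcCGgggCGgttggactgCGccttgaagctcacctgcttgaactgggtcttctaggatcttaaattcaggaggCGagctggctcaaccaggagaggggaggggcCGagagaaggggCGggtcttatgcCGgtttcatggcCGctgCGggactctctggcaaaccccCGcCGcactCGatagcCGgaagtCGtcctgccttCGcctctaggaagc

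The Uggt2 stretch had 71.6% G and C and 22 CpG, 0.693 of the number expected from its base composition. That of Uggt1 had 57.2% G and C and 15 CpG, an observed-to-expected ratio of 0.747. Over 32851 RefSeq promoters of the same length the medians were 52.4% and 0.374, and 6.87% of them had a higher G and C content than that of Uggt2. The G and C content of the members with a sequence ranged from 44.4% at Edem2 to 76.0% at Edem1, so that of Uggt2 lay within their range. An ETS motif (CCGGAAGT, both strands, searched in the 300 bases from 250 before to 50 after a start) began 5 bases before the start of Uggt2, 33 before that of Uggt1 and 76 before that of Edem3. It was present in 3 of 9 member promoters and in 3.89% of all. A match in letters does not show binding.

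Of the 10 members, Uggt2 alone was called lower and none was called higher (edgeR quasi-likelihood test, adjusted p under 0.05). In all, 20.2% of the 24817 windows tested were called lower and 6.36% higher, and nothing is read from the members' count, since the same comparison chose them. The other 9 log2 fold changes lay between -0.74 at Pdia3 and 0.44 at Calr. These extremes belonged to the windows with the fewest counts. Among the 7 others, most of whose window bases are unshared, no change was larger than 0.23 in either direction. Over all 10 members the median log2 fold change was -0.01, against 0.04 over all windows tested.

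**Figure D1:**
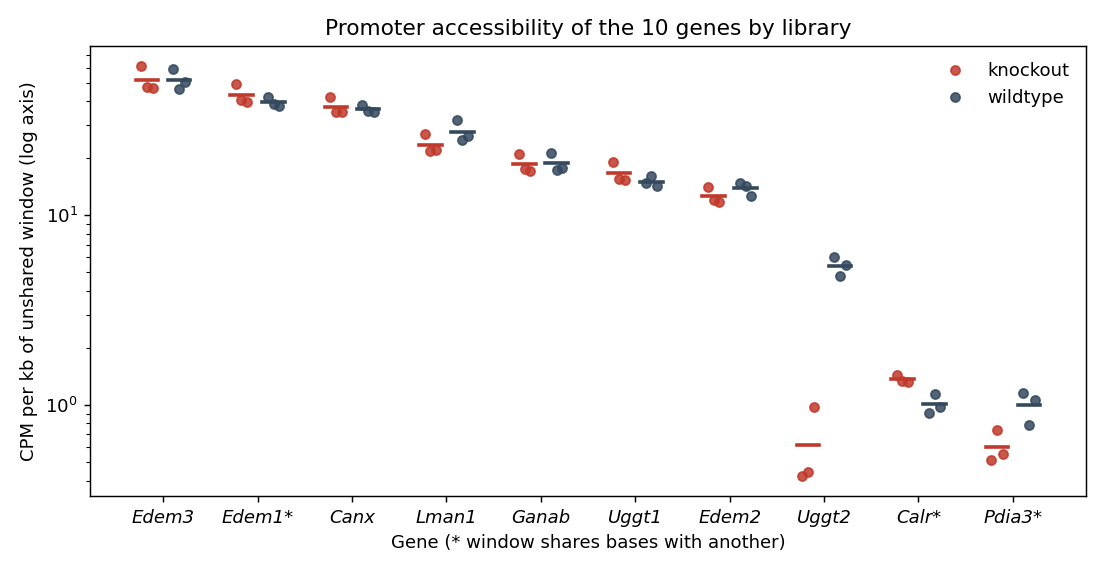
Accessibility of each gene in CPM per kb of window not shared with another gene (log axis), with 1 point per library (knockout left, wildtype right) and a bar at the mean of 3 libraries. The Uggt2 knockout libraries, at 0.424 to 0.978, lie below its wildtype libraries, at 4.82 to 6.04, while the knockout and wildtype points of its paralogue Uggt1 overlap.

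Ganab encodes the catalytic subunit of glucosidase II, which trims the glycan ahead of the lectins. Its window held 104.9, 88.2 and 85.5 CPM in knockout libraries 1 to 3, against 107.1, 86.7 and 88.5 CPM in wildtype. The groups overlapped (log2 fold change -0.02, SE 0.119).

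Canx encodes calnexin, the membrane-bound lectin. Its levels were 209.7, 174.4 and 174.7 CPM in knockout libraries 1 to 3, against 191.7, 177.9 and 175.0 CPM in wildtype. They overlapped as well (log2 fold change 0.04, SE 0.126; -0.16 and called lower after loess normalisation). Calr, its soluble counterpart, was counted only in part. Its window shares all but 1516 of 5001 bases with that of 1700122E12Rik, and its start lies in the shared stretch. The rest held 38, 34 and 33 counts in knockout, against 27, 27 and 25 in wildtype. Every knockout library was above every wildtype library, at a log2 fold change of 0.44 (SE 0.392); of all windows tested, 13.5% were separated in this direction.

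The partner oxidoreductase gene Pdia3 was in the same position. Its window shares all but 890 bases with that of Catsper2, the start included. The rest held 8, 11 and 8 counts in knockout, against 20, 11 and 16 in wildtype. After scaling, every knockout library, at 0.458 to 0.657 CPM, was below every wildtype library, at 0.703 to 1.03 CPM (log2 fold change -0.74, SE 0.546). Separation in this direction was seen in 24.6% of all windows tested. Reads in shared stretches appear not to be counted, and the values of Calr and Pdia3 may then not include their promoters.

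The promoters of both lectin genes hold an ER stress response element (ERSE), the bipartite site through which the unfolded protein response raises chaperone genes. The motif is CCAAT, then 9 bases of any kind, then CCACG, searched on both strands, and it contains the CCAAT motif counted further on. The 250 bases before the starts of Canx (chr11:50325674-50325923) and Calr (chr8:84846932-84847181), both on the minus strand of GRCm38.p6 and from RefSeq, are shown with the ERSE in capitals. In Calr it reads on the opposite strand.
Canx: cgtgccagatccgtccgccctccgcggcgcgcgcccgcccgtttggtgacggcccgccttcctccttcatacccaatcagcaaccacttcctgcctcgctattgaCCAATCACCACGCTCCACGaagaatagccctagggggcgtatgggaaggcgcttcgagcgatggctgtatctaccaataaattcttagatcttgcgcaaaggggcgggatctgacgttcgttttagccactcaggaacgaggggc
Calr: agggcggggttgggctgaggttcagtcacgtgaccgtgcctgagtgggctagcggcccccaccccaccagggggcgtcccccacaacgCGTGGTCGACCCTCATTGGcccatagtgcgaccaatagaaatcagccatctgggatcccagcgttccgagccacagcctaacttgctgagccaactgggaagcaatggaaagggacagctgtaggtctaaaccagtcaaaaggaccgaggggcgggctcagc

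The ERSE began 145 bases before the start in Canx and 162 in Calr. Among the 9 members with a promoter sequence these 2 held it, against 0.119% of 32851 promoters. Neither ERSE-II (ATTGG, any base, then CCACG, in 0.0365% of promoters) nor the core of the unfolded protein response element (TGACGTGG, in 0.676%) was found in these windows. CCAAT alone was present in 7 of the 9 and in 37.4% of all. Uggt2 held a CCAAT on the opposite strand, 188 bases before its start, and Uggt1 held none.

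The Edem genes, which send misfolded glycoproteins to degradation, gave no call in the main test. Edem1 had 201.5, 165.8 and 161.0 CPM in knockout libraries 1 to 3, against 171.6, 157.0 and 154.1 CPM in wildtype (log2 fold change 0.13, SE 0.126). Edem2 had 70.9, 59.9 and 58.8 CPM in knockout, against 74.2, 71.5 and 63.6 CPM in wildtype (-0.14, SE 0.115). Edem3 had 304.9, 237.0 and 235.4 CPM in knockout, against 294.8, 233.0 and 252.4 CPM in wildtype (-0.01, SE 0.129). In each of the 3 genes the groups overlapped. Knockout library 1 was the highest knockout library there, as it was at Uggt1, Ganab, Canx and Lman1. Its scaling factor for composition (TMM) was 0.884, against 1.04 and 1.06 in knockout libraries 2 and 3. Alternatives called Edem2 lower with library totals only and without knockout library 1, Edem3 lower after loess normalisation (-0.28), and Edem1 higher with a mean count of at least 50.

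Lman1, the cargo receptor that leads glycoproteins out of the ER, had the lowest value of the well-covered windows after Uggt2. It held 133.9, 109.8 and 109.9 CPM in knockout libraries 1 to 3, against 158.8, 124.7 and 130.5 CPM in wildtype. Knockout library 1 lay within the wildtype range and the other knockout libraries below it (log2 fold change -0.23, SE 0.123). The value stayed below 0 in all 14 alternatives, of which 8 called it lower.

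**Figure D2:**
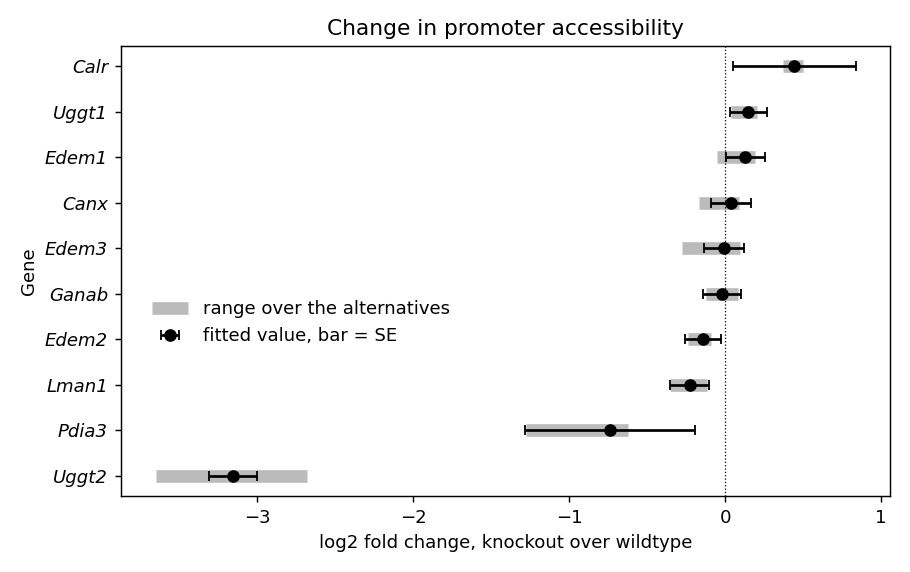
Log2 fold change, knockout over wildtype, of the 10 genes, with the fitted value as a point. Bars are SE from the F statistic of the fit, and grey gives the range over the main fit and the alternatives. Uggt2 lies between -3.65 and -2.68 throughout, and the other genes lie near 0 except Calr and Pdia3, which had few counts.

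Uggt2 was also the least accessible of the members whose own start was counted. Per kb of unshared window, wildtype levels were 52.0 ± 6.32 CPM at Edem3, 39.5 ± 2.30 at Edem1, 36.3 ± 1.79 at Canx, 27.6 ± 3.64 at Lman1 and 18.8 ± 2.26 at Ganab. They were 15.1 ± 0.942 CPM per kb at Uggt1, 13.9 ± 1.10 at Edem2 and 5.44 ± 0.609 at Uggt2 (SD, n = 3 each). In this order Edem1 and Canx overlapped, as did Uggt1 and Edem2, while the other neighbours among these 8 did not. In knockout the order of the means of these 8 genes was the same, with Uggt2 last at 0.615 ± 0.315 CPM per kb. The overlaps differed: Edem3 overlapped Edem1, Edem1 overlapped Canx and Ganab overlapped Uggt1, while Uggt1 and Edem2 were separate. Uggt2 in knockout overlapped the partly counted window of Pdia3, at 0.601 ± 0.120 CPM per kb.

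Knockout library 3 held more of the Uggt2 signal than the others. Uggt2 came to 7.80%, 8.13% and 18.0% of its wildtype mean in knockout libraries 1 to 3. The window of Kat7 itself came to 4.46%, 4.94% and 14.4% of its wildtype mean in the same libraries. In both windows, library 3 was thus the highest of the knockout libraries. It was also the highest at Hs6st3, Oxgr1 and 1700006F04Rik, neighbours of Uggt2 described below, but not at Dnajc3 or Dzip1. Of these, 1700006F04Rik did not pass and held 0.860, 1.13 and 1.65 CPM in knockout libraries 1 to 3. At Uggt1, Ganab, Canx, Lman1 and the Edem genes library 1 was the highest. Without knockout library 3 the log2 fold change of Uggt2 was -3.65. Whether the remaining Kat7 signal has a part in that of Uggt2 was not tested.

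The nearest neighbour of Uggt2 was lower in the knockout as well. Hs6st3, a heparan sulfate 6-O-sulfotransferase gene, starts 38.8 kb away and is transcribed in the opposite direction, away from Uggt2. It held 3.95, 5.55 and 6.85 CPM in knockout libraries 1 to 3, against 25.3, 20.8 and 24.5 CPM in wildtype. Every knockout library was below every wildtype library, as in 24.6% of all windows tested. The log2 fold change was -2.11 (SE 0.142, edgeR adjusted p = 8.44e-48). It fell in all 14 alternatives too, with values from -2.31 to -1.65.

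On the other side, 162 kb away, Dnajc3, an ER co-chaperone gene that is not one of the members, did not pass. It held 198.9, 167.3 and 151.8 CPM in knockout, against 173.5, 140.0 and 156.0 CPM in wildtype (log2 fold change 0.14, adjusted p = 0.442; -0.04 after loess normalisation). Dzip1, a gene of cilium formation 176 kb away, fell to 33.8 ± 2.29 CPM in knockout, against 49.6 ± 3.36 CPM in wildtype (SD, n = 3 each; log2 fold change -0.56, adjusted p = 6.85e-06). The next window beyond Hs6st3, that of 1700006F04Rik at 650 kb, had 1.22 ± 0.402 CPM in knockout and 1.01 ± 0.140 CPM in wildtype and did not pass (adjusted p = 0.731). Within 1000 kb of the start of Uggt2, 3 of 12 other windows fell and 1 rose, a share near the 20.2% and 6.36% of all windows tested. Besides Hs6st3 and Dzip1, this includes Oxgr1, the 2-oxoglutarate receptor gene, named after its value was seen, at a log2 fold change of -2.28.

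Uggt1 has a member of the same sulfotransferase family beside it. Hs6st1 starts 176 kb away and held 213.2, 166.6 and 162.7 CPM in knockout, against 157.6, 148.0 and 145.4 CPM in wildtype. Every knockout library was above every wildtype library, as in 13.5% of all windows tested. The difference did not pass (log2 fold change 0.27, SE 0.126, edgeR adjusted p = 0.106). All 14 alternatives put it above 0 and 5 called it higher (adjusted p between 0.000441 and 0.202). Within each library, Hs6st3 came to 1.85%, 3.33% and 4.21% of Hs6st1 in knockout, against 16.1%, 14.0% and 16.8% in wildtype. In both paralogue pairs the copy on chromosome 14 was thus the less accessible in every library, and its share was lower in every knockout than in every wildtype library.

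The nearest window to Uggt1 on its other side, that of the ubiquitin ligase gene Neurl3 at 29.1 kb, fell to 60.9 ± 7.22 CPM in knockout, against 91.9 ± 2.27 CPM in wildtype (SD, n = 3 each; log2 fold change -0.59, adjusted p = 3.72e-06). Arid5a, 63.4 kb away, did not pass (0.21, adjusted p = 0.223), nor did Plekhb2 beyond Hs6st1 (-0.15, adjusted p = 0.350). Within 1000 kb of the start of Uggt1, 2 of 18 other windows fell and 1 rose.

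**Figure D3:**
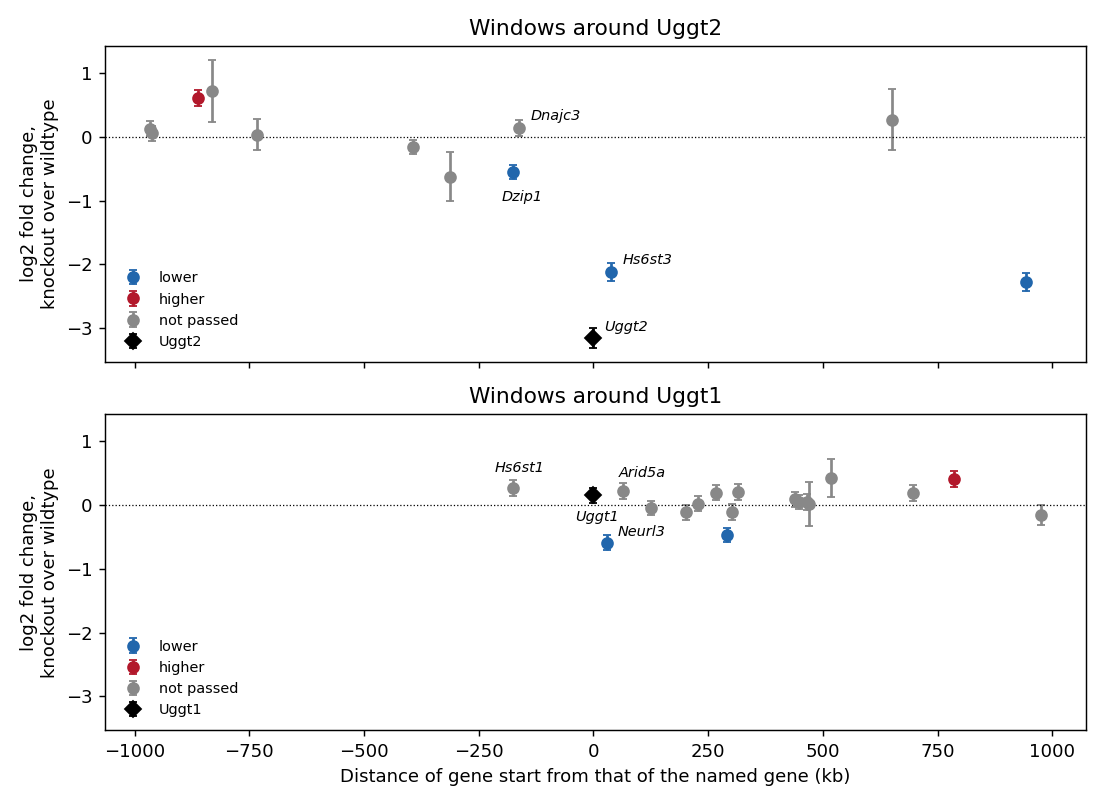
Log2 fold change, knockout over wildtype, of the windows within 1000 kb of the starts of Uggt2 (top) and Uggt1 (bottom), against distance in kb. Bars are SE from the F statistic of the fit, and colours give the call. Uggt2 at -3.15 and Hs6st3 at -2.11 stand apart from Dnajc3 at 0.14, while Uggt1 and Hs6st1 lie slightly above 0.

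The windows most like Uggt2 in pattern belonged to genes of other functions. Likeness was the Euclidean distance of log2 CPM over the 6 libraries, with each window centred on its own wildtype mean, so that the nearest windows share the loss by construction and no test is given. The nearest was Usp29, a deubiquitinase gene with a distance of 0.260 and a log2 fold change of -3.19. Its window shares all but 678 bases with that of Peg3, its start included, and the value may not include its promoter. Next came Pgr, the progesterone receptor gene (0.466, -2.90), and also among the nearest 5 was Gulp1, an engulfment adaptor gene (0.662, -2.96). In each of these 3 windows knockout library 3 was the highest knockout library, with 18.3% to 23.0% of the wildtype mean. The distance over all 6 libraries selects for this order too. Hs6st3 was number 82 in this order (distance 1.96).

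The rest of the pathway was followed through 106 further genes in 6 lists, of which 93 could be tested. Of these 4 fell, 5 rose and 84 did not pass, with a median log2 fold change of 0.05, against 0.04 over all windows. In the main test 9.68% of them were called, against 26.6% of all windows tested. These shares depend on the scaling, and with library totals only they were 28.0% and 33.3%. Of the alternatives, only loess normalisation reversed their order, at 49.5% and 40.0%. The 13 that were not tested all had windows that share bases with another. Without knockout library 1, 13 were lower, and without wildtype library 2, 7. The number higher was 2 without wildtype library 1 and 3 without knockout library 2.

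Genes that build the lipid-linked glycan came first in the pathway. Of 19 tested, 3 rose, 1 fell and 15 did not pass. Dpagt1, which starts the glycan, had 81.9 ± 5.97 CPM in knockout and 65.3 ± 3.87 CPM in wildtype (SD, n = 3 each; log2 fold change 0.33, adjusted p = 0.0214). The glucosyltransferase gene Alg6 had 150.0 ± 13.4 CPM in knockout and 119.3 ± 4.03 CPM in wildtype (0.33, adjusted p = 0.0306). Alg8, the next glucosyltransferase, also rose (0.33). The calls of Dpagt1 and Alg6 were lost without wildtype library 1 (adjusted p = 0.156 and 0.166) or knockout library 2 (0.100 and 0.0773), within ranges from 4.75e-05 and 1.70e-05. Alg12, a mannosyltransferase gene, fell to 4.39 ± 0.402 CPM in knockout, against 11.98 ± 0.307 CPM in wildtype (-1.45, adjusted p = 2.20e-16). Its window shares all but 672 bases with that of Creld2, its start included, and the value may therefore not include its promoter.

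The subunits of the oligosaccharyltransferase, which moves the glycan onto the protein, gave 9 tested windows with no call in either direction (median 0.02). The 13 tested genes of further glycan trimming and lectins gave none either (median 0.01). Of 15 genes of ER-associated degradation, 1 rose and 14 did not pass (median 0.11). That was Ube2j1, a ubiquitin-conjugating enzyme gene of the ER membrane, with 17.7 ± 2.35 CPM in knockout and 9.84 ± 2.68 CPM in wildtype (log2 fold change 0.86, adjusted p = 2.91e-09). Its counted part is 898 bases long and does not include its start.

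Of 22 ER chaperones and disulfide enzymes, 1 fell, none rose and 21 did not pass (median 0.05). Pdia5, a relative of Pdia3, fell to 19.5 ± 1.65 CPM in knockout, against 34.3 ± 6.09 CPM in wildtype (log2 fold change -0.81, SE 0.116, adjusted p = 3.42e-11). Among the 15 factors of the unfolded protein response 2 fell, 1 rose and 12 did not pass (median -0.0018). The transcription factor gene Creb3l1 fell to 7.79 ± 0.854 CPM in knockout, against 20.6 ± 2.83 CPM in wildtype (-1.41, adjusted p = 2.85e-23). Its relative Creb3l3 fell by 0.63 on the log2 scale (adjusted p = 0.00248; 0.364 after loess normalisation, the highest of its alternatives). Atf6, the gene of an ER stress sensor, had 66.6 ± 6.22 CPM in knockout and 51.5 ± 4.65 CPM in wildtype (0.37, adjusted p = 0.00548). Its call was lost without wildtype library 1 (0.0780, the highest of its alternatives, which began at 2.03e-05).

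An ERSE stood in the promoters of 10 of the 87 pathway genes with a sequence. Those were Alg12, which fell, and Calr4, Creld2, Derl3, Dnajc3, Ero1b, Hsp90b1, Hspa5, Pdia6 and Syvn1, which did not pass. Their log2 fold changes, Alg12 aside, lay between -0.39 at Creld2 and 0.31 at Calr4. Those of Creld2 (SE 0.522) and Hsp90b1 (SE 0.491) were poorly determined. As given above, the Alg12 window overlaps that of Creld2, and its value may not include its promoter. Over the whole series, 32 tested windows belonged to genes with an ERSE, of which 5 fell (15.6%) and 1 rose (3.1%). Of all windows tested, 20.2% were called lower and 6.36% higher. This grouping was chosen after the values were seen.

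**Figure D4:**
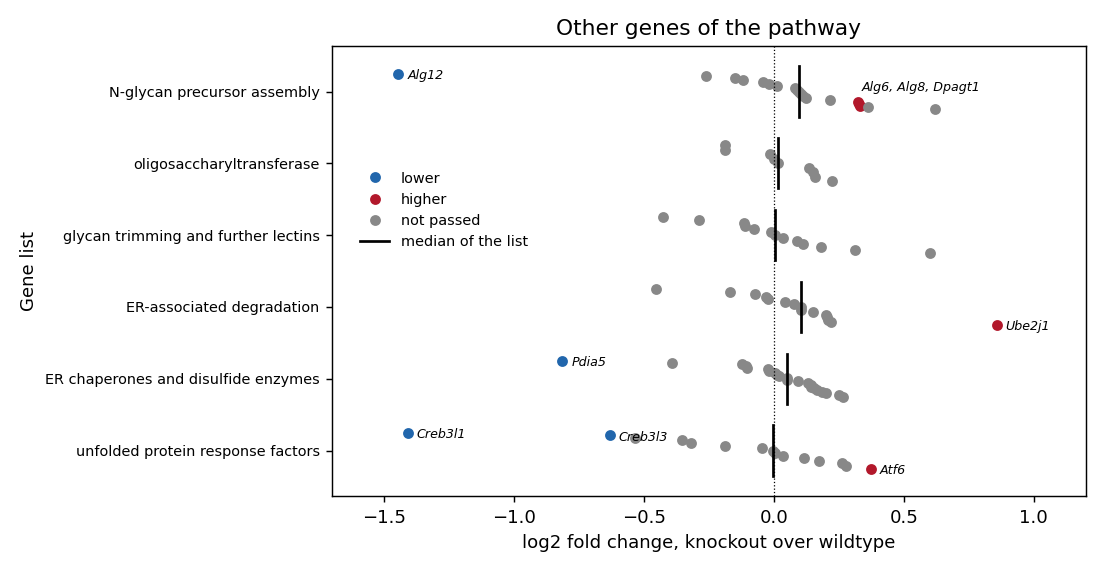
Log2 fold change, knockout over wildtype, of 93 further pathway genes in 6 lists, with 1 point per gene coloured by its call and a line at each list's median. Most points lie near 0; Alg12 at -1.45 and Creb3l1 at -1.41 are the lowest and Ube2j1 at 0.86 is the highest.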

How the data were processed

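The authors deposited raw counts for each gene window. The submitters' processing notes name featureCounts and mm10, with the aligner, duplicate removal and transposase shift not given in the sources used here. All 6 library tables held the same counts as the series table. Symbols came from the library tables, joined by gene identifier, and 16 of 1280 missing ones from a GRCm38.p6 annotation table. Of 27095 windows, 6243 shared bases with another. The 4822 windows with most bases shared had a median of 15.2 counts per library, against 224.3 for windows sharing none.

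The test on the counts was that of edgeR 4.0.16 under R 4.3.3 (filterByExpr, TMM, robust quasi-likelihood, Benjamini-Hochberg at 0.05 over 24817 windows), without a replicate block. The procedure was tested on simulated data with 200 changed windows, drawn alike in both directions. That is far fewer than the 6589 windows called here, so the simulation does not test the scaling. CPM use TMM-scaled library sizes, and CPM per kb the unshared bases. With 3 libraries against 3, p-values cover no spread beyond these libraries. The test moderates the spread of each window with that of all windows, and very small p-values depend on that moderation. Alternatives used DESeq2 1.42.0, limma 3.58.1, other scalings and filters, and each library left out in turn. Motifs and base composition came from RefSeq promoters (GRCm38.p6), found for 9 of the 10 members. For 8 of these the RefSeq start equalled the start implied by the window.

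The members and lists were chosen with earlier results of these data known. Genes named in the text were all members, Kat7, the extremes among called genes of each list, the 2 nearest windows on either side of Uggt2 and Uggt1, and the 5 windows nearest to Uggt2 in pattern, of which 2 are not reported here. Others are said to be named after their values were seen, or are named as marker examples, called list genes or carriers of a motif.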

Additional observations from a re-analysis of the deposited data

How the results depend on the processing

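The log2 fold change of Uggt2 ran from -3.65 to -2.68 over the main test and 14 alternatives. It was chosen by this comparison, so its calls there are no sign of stability. Ganab and Calr were called in none (Calr could not be tested with a mean count of at least 50, nor could Pdia3). The members called lower numbered 3 with library totals only (Edem2 and Lman1 besides Uggt2), 5 after loess normalisation (Canx, Edem3, Lman1 and Pdia3 besides it), 2 with a mean count of at least 50, 2 with no filter on low counts and 2 with the replicate number as a block (Lman1 in each), and 1 to 3 without single libraries (3 without knockout library 1, 2 without wildtype library 2 or 3). A mean count of at least 50 gave 2 members higher, Edem1 and Uggt1; none was higher without any single library. Pathway genes lower and higher, 4 and 5 in the main test, were 10 and 16 with library totals, 26 and 20 after loess normalisation, and 4 to 13 lower and 2 to 7 higher without single libraries. No filter gave 7 lower, a mean count of at least 50 gave 23 higher and the block 8 higher. Windows higher, 1578 in the main test, were 2937 with library totals, 4732 after loess normalisation, 3937 with a mean count of at least 50, 2824 with the block and 689 (without wildtype library 1) to 3177 (without knockout library 1) when single libraries were left out. Windows lower were 4227 to 5709 without single libraries. The higher share of calls, 23.9%, was 35.6% with library totals and 47.7% after loess normalisation. Among the members, values were below 0 in 5 of the 15 settings (main included) at Canx, 1 at Edem1, 9 at Edem3 and 9 at Ganab. The lowest and highest were -0.16 (loess) and 0.09 at Canx, -0.054 (loess) and 0.19 at Edem1, -0.28 (loess) and 0.093 at Edem3, and -0.12 and 0.082 at Ganab. Among the other genes named, the sign changed at Dnajc3 (-0.039 after loess normalisation) and 1700006F04Rik (-0.054 after loess normalisation and, without single libraries, -0.013 to 0.47, the lowest without knockout library 3). Causes were not tested. Same-numbered libraries of the groups correlated in their deviations at 0.374, 0.0284 and 0.389. Knockout libraries 1 and 3, unlike library 2, correlated best with their own number. The numbers were not taken as pairs because the labels name no shared litter or day, and these correlations do not exclude pairing. Depth limits the values of Calr and Pdia3, at 8 to 38 counts per library.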
